A study of Bos taurus with 15 samples.

Results

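The trefoil factors TFF1, TFF2, and TFF3 and the gastrokines GKN1 and GKN2 were followed along the digestive tract of cattle and between newborn (NB) and adult (AD) animals. They were found by symbol in the gene table of the files, which gave 5 genes of 27270: TFF1 (ENSBTAG00000048276), TFF2 (ENSBTAG00000030814), TFF3 (ENSBTAG00000021276), GKN1 (ENSBTAG00000012949), and GKN2 (ENSBTAG00000017199). The data are single-cell RNA sequencing (scRNA-seq) libraries of dissociated tissue, made with droplets that tag the 3′ end of each transcript with a unique molecular identifier (UMI). Because 3′ ends are counted, gene length does not enter the level of a gene. There were 11 NB libraries (the forestomach chambers reticulum and omasum, the abomasum, the duodenum, jejunum, and ileum of the small intestine, the cecum, colon, and rectum of the large intestine, and, outside the gut tube, liver and salivary gland) and 4 AD libraries (duodenum, jejunum, cecum, and colon). The forestomach has a stratified lining, and the abomasum is the glandular stomach. All animals were Holstein cattle, and the labels name no treatment. A single lactating cow gave all AD tissues, the NB tissues came from 3 calves, and the calf behind each NB library is not given in the sources used here. AD duodenum and cecum were dissociated with a lamina propria kit, AD jejunum and colon with a multi tissue kit, and NB gut tissues with EDTA and trypsin followed by other enzymes. Stage, animal, and dissociation therefore changed together and cannot be told apart. The salivary gland was the parotid. With 1 library for a tissue at a stage, libraries were not tested against each other. The intervals given are 95% intervals that cover counting error only.

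Trefoil factors are small, protease-resistant secreted peptides that epithelial cells release together with mucus. TFF1 is best known from the surface mucous cells of the stomach, TFF2 from the mucous neck cells and gland bases of the stomach and from the glands of the proximal duodenum, and TFF3 from the goblet cells of the intestine. Gastrokines are secreted proteins of the gastric surface epithelium, and GKN1 and GKN2 are among its most abundant products in many mammals.

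Levels were taken in barcodes with at least 1 UMI of EPCAM, the epithelial adhesion molecule, and are given in CPM, the usual scaled share of the summed UMIs of those barcodes, in which 1000 CPM is 0.1% of the UMIs. After the filters, 119798 of 172405 barcodes were kept, and 26103 of these were EPCAM barcodes, 73 to 6641 per library. Unless other barcodes are named, a UMI count of a member, 0 included, is over these retained EPCAM barcodes. Library totals were 17707625 to 129458578 UMIs. Barcodes with PTPRC, the leukocyte antigen CD45, and without EPCAM served as cells that should lack the members, so that UMIs from free RNA could be seen. The EPCAM rule selected epithelial barcodes less cleanly in some libraries. In AD duodenum, 73.3% of the 202 EPCAM barcodes also held PTPRC, 79.2% held a single EPCAM UMI, and only 14.9% held KRT8, an epithelial keratin. PTPRC was found in 40.3% to 60.8% of the EPCAM barcodes of the other AD libraries, in 52.1% of the 73 EPCAM barcodes of NB salivary gland, and in 37.7% of those of NB liver. In the NB intestine the share was highest in cecum (29.3%) and ileum (27.6%), followed by rectum (18.7%), colon (14.5%), jejunum (10.2%), and duodenum (3.59%). In NB reticulum and omasum, KRT8 was seen in 4.22% and 1.66% of the EPCAM barcodes, whereas CDH1, encoding E-cadherin, was seen in 50.6% and 49.8%. Barcode sequences shared between libraries made up 2.68% to 3.29% of the kept barcodes of a library. They held 30.3% of the TFF3 UMIs of AD duodenum, 17.5% of those of AD jejunum, and 17.2% of those of AD colon, and at most 5.56% of the UMIs of a member in any other library.

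TFF1, GKN1, and GKN2 were genes of the abomasum. TFF1 reached 550 CPM in NB abomasum (545 to 556, from 35487 UMIs) and was seen in 33.3% of the 4923 EPCAM barcodes, or in 19.2% after each barcode had been thinned to 1000 UMIs. It had 18 UMIs in NB duodenum (0.425 CPM), 1 in NB salivary gland, and 0 in the other 12 libraries, where the limit that a count of 0 allows was 0.0412 to 2.61 CPM. NB abomasum thus held 99.9% of all TFF1 UMIs of the EPCAM barcodes. The level of TFF1 was 1294-fold higher in NB abomasum than in NB duodenum (818 to 2183), at least 13357-fold higher than in NB omasum, and at least 211-fold higher than in AD duodenum, where few UMIs were available. With scored doublets kept, TFF1 in NB duodenum was at 0.899 CPM from 41 UMIs, beside 543 CPM in NB abomasum.

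GKN1 reached 58 CPM in NB abomasum (56.2 to 59.9, from 3740 UMIs) and was seen in 10.7% of its EPCAM barcodes, or in 4.38% after thinning. Outside NB abomasum there was 1 GKN1 UMI in the retained EPCAM barcodes, in NB liver. GKN2 reached 6.99 CPM (6.36 to 7.67, from 451 UMIs) in 3.33% of the barcodes of NB abomasum, and it had no UMI in the retained EPCAM barcodes of the other 14 libraries. The level of GKN1 was at least 818-fold higher in NB abomasum than in NB duodenum and that of GKN2 at least 98.6-fold. The bound for GKN2 holds only with scored doublets removed, since NB duodenum had 8 GKN2 UMIs, 0.175 CPM, with them kept. The 3 genes therefore lay in a steep order within the abomasum, with intervals that did not overlap. The AD abomasum was not analysed here, so these genes could not be compared between stages in the stomach.

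TFF2 was highest in NB abomasum and NB colon. In the order of the tract, its level was 0 in NB reticulum and omasum, 2936 CPM in NB abomasum (2923 to 2950), 19.1 in NB duodenum (17.8 to 20.4), 0.717 in NB jejunum, 0.566 in NB ileum, 80.2 in NB cecum (73.8 to 87.1), 4709 in NB colon (4669 to 4750), and 322 in NB rectum (312 to 332). The AD libraries had 447 CPM in cecum (430 to 464), 296 in colon (278 to 314), and no TFF2 UMI in duodenum and jejunum, where a count of 0 allows up to 2.61 and 1.09 CPM. No TFF2 UMI was seen in liver and salivary gland. NB jejunum and ileum thus had the lowest levels of TFF2 between the abomasum and the colon. The order of NB duodenum and NB cecum depended on the removal of doublets, since they had 533 and 75.6 CPM with scored doublets kept.

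The share of barcodes with TFF2 followed a different order from the level. It was 69.8% in NB abomasum, 38.3% in NB colon, and 17.1% in NB rectum, and after thinning to 1000 UMIs it was 29.8%, 17.4%, and 4.51%. The top 1% of the EPCAM barcodes, 10 barcodes, held 52.9% of the TFF2 UMIs of NB colon, against 22.5% in NB abomasum. In AD colon, 1 barcode held 849 of the 1056 UMIs, and in NB cecum 1 barcode held 274 of the 565 UMIs. The order of NB colon and NB abomasum depended on the processing. The log2 ratio of NB colon to NB abomasum was 0.68 on the log2(CPM + 5) scale, but −0.38 when barcodes with more than 4000 genes were let in and −0.18 when the level was the mean over barcodes.

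TFF3 was the member found in the most libraries, with UMIs in 13 of 15. It was highest in AD cecum at 3220 CPM (3175 to 3267), followed by AD jejunum at 2856 (2793 to 2920) and NB salivary gland at 2725 (2587 to 2868). The intervals of AD jejunum and NB salivary gland overlapped, and AD cecum was 1.13-fold above AD jejunum (1.1 to 1.16). A middle group held NB duodenum at 814 CPM (806 to 823), AD colon at 803 (774 to 833), NB jejunum at 770 (756 to 785), NB ileum at 664 (647 to 681), and NB colon at 487 (474 to 500). The intervals of NB duodenum and AD colon overlapped, as did those of AD colon and NB jejunum. These intervals leave out the spread between barcodes, so neither an overlap nor a gap tells libraries apart. A single barcode held 1340 of the 7847 TFF3 UMIs of AD jejunum, 1691 of the 18995 of AD cecum, and 341 of the 1470 of NB salivary gland.

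The lower levels of TFF3 were 197 CPM in NB cecum (187 to 208), 182 in NB abomasum (179 to 185), 124 in NB rectum (118 to 130), 77.4 in AD duodenum (62.1 to 95.2), and 5 in NB liver (2.01 to 10.3), and the forestomach had no UMI. Within the NB gut the range of TFF3 from duodenum to rectum was narrow beside that of TFF2. In NB abomasum, despite its low level, 49.9% of the EPCAM barcodes held TFF3 (13.7% after thinning), the highest share of the 15 libraries before thinning. After thinning, the highest shares were 22.9% in NB salivary gland, 18.4% in AD jejunum, and 17% in AD cecum.

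**Figure D1:**
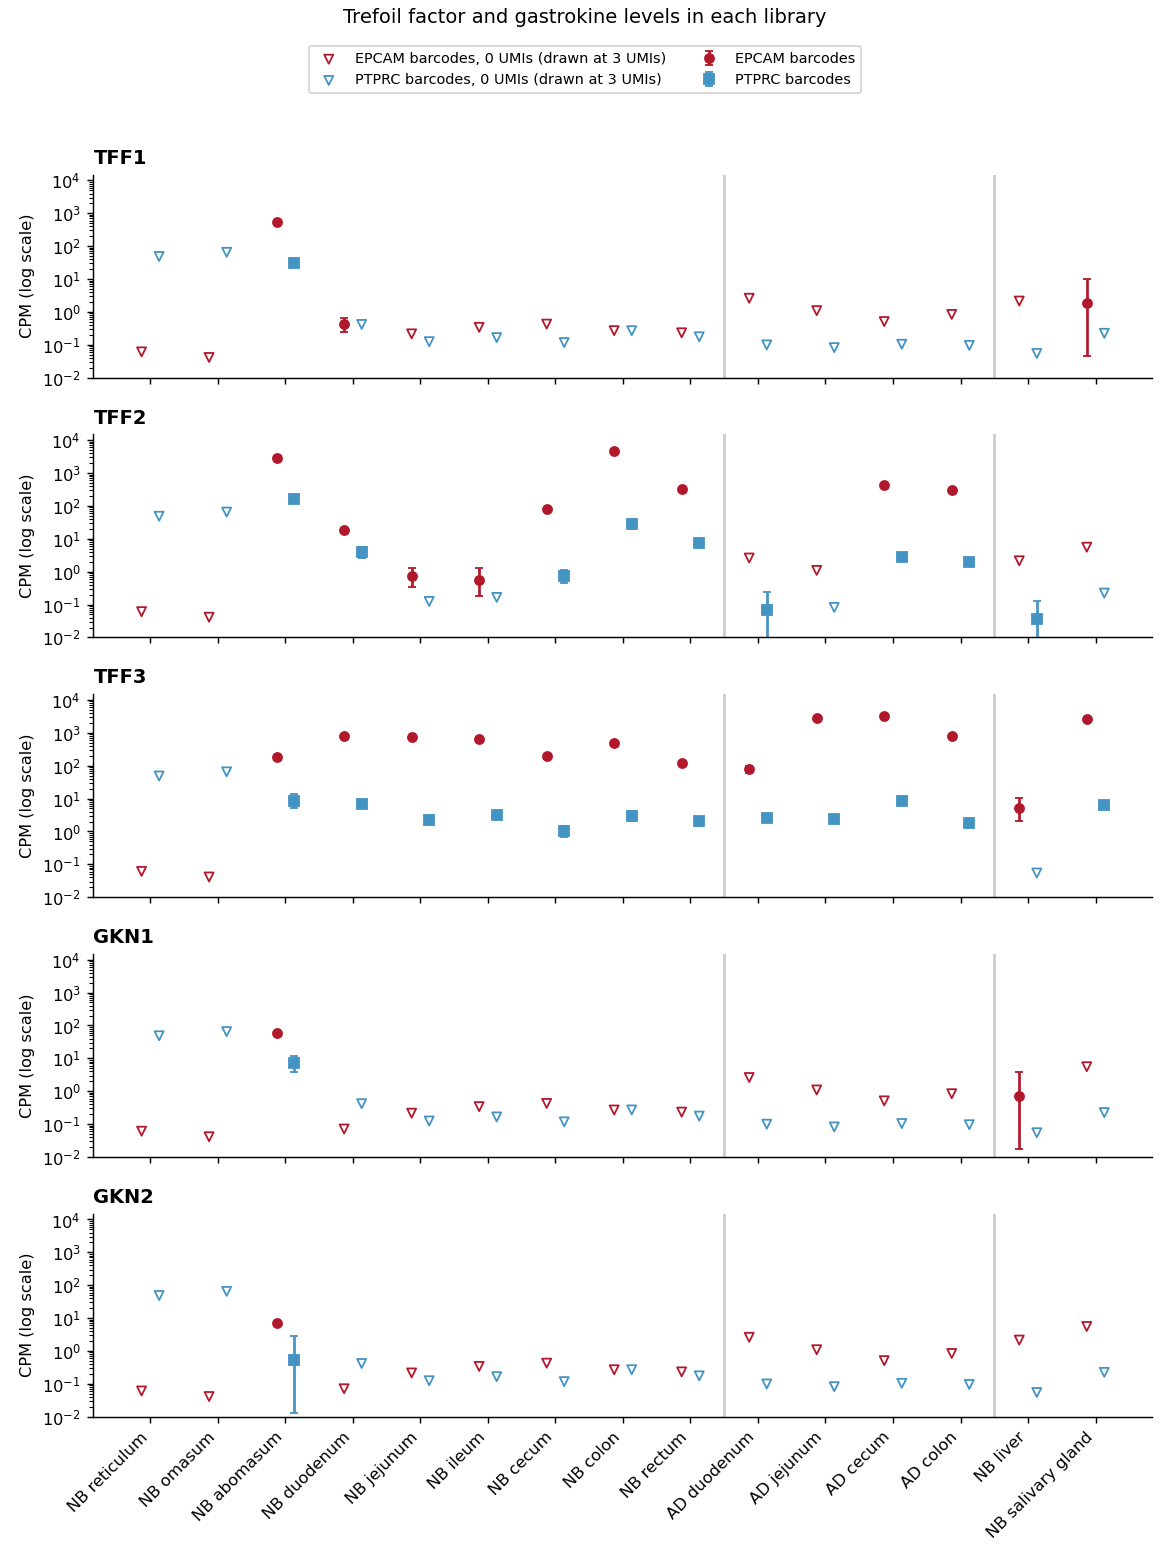
Level of each member (CPM, log axis) in EPCAM barcodes (red circles) and PTPRC barcodes without EPCAM (blue squares) of the 15 libraries, with exact Poisson 95% intervals. Open triangles stand at 3 UMIs for libraries with no UMI, so their height reflects depth. TFF1, GKN1, and GKN2 stand out only in NB abomasum. TFF2 is high in NB abomasum (2936 CPM) and NB colon (4709 CPM) and low between them. Within the NB intestine, TFF3 is highest in NB duodenum (814 CPM) and lowest in NB rectum (124 CPM).

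Neighbouring tissues were compared by the log2 ratio of CPM with a pseudocount of 5 CPM, with a difference of 4-fold or more counted among genes of at least 10 CPM in either library. Against NB omasum, where no member had a UMI, the log2 ratios of NB abomasum were 9.20 for TFF2, 6.80 for TFF1, 5.23 for TFF3, and 3.66 for GKN1. These 4 members passed the minimum level through NB abomasum alone, so that they are all above 4-fold is not read against the 2.96% of all genes tested that were higher. Against NB duodenum, TFF2 (6.93), TFF1 (6.68), and GKN1 (3.66) were higher in NB abomasum, where 1.5% of all genes tested were. TFF1 and GKN1 passed the minimum level through NB abomasum alone, so these 2 are not read against that share. The TFF2 ratio was 2.44 with scored doublets kept and 3.09 with no upper limits and scored doublets kept, the latter chosen after seeing the data. TFF3 went the other way, at −2.13, which was 182 against 814 CPM. As the log2 ratio of NB duodenum to NB abomasum, the 2.13 of TFF3 was 1.18 without mitochondrial genes and genes above 1%, 1.72 without the upper limit on genes, and 1.84 over all kept barcodes, so that 4-fold was not reached. NB colon exceeded NB cecum 4-fold in TFF2 (5.79) but not in TFF3 (1.28), and 0.587% of the genes tested did so. NB colon also exceeded NB rectum in TFF2 (3.85) and not in TFF3 (1.94), beside 0.525% of the genes tested. Along the large intestine, TFF2 therefore had a peak in the colon that TFF3 did not share at this fold. The TFF2 log2 ratios of colon to cecum and to rectum were 4.77 and 3.25 without barcodes holding PTPRC or COL1A2, a fibroblast gene. They were 5.96 and 2.97 without the upper limit on genes, and 6.65 and 4.19 over all kept barcodes. Without the barcode with the most TFF2 UMIs in each library they were 6.51 and 4.00, an alternative chosen after seeing the data. COL1A2 was seen in 33.9% of the EPCAM barcodes of NB cecum and 35.8% of those of NB rectum, against 1.99% in NB colon. GKN2 was under 10 CPM everywhere and was not counted in these comparisons.

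Of the 75 pairs of a member and a library, 21 reached 10 CPM in EPCAM barcodes, and 20 of these were 4-fold or more higher in EPCAM than in PTPRC barcodes of the same library. Only TFF1 and TFF2 of NB abomasum and TFF2 of NB colon reached 10 CPM in PTPRC barcodes, so the other pairs passed the minimum through the higher side and their count is a description. The share of genes tested that were higher in EPCAM barcodes was 2.57% in NB abomasum, 7.58% in NB duodenum, 6.26% in NB jejunum, 3.93% in NB ileum, 5.71% in NB cecum, 5.74% in NB colon, 7.01% in NB rectum, 2.42% in AD duodenum, 7.1% in AD jejunum, 8.01% in AD cecum, 7.45% in AD colon, and 4.54% in NB salivary gland. The exception was TFF2 in NB duodenum, with 19.1 CPM in EPCAM and 4.02 CPM in PTPRC barcodes, a plain ratio of 4.74 (3.27 to 7.12) but a log2 ratio of 1.42 with the pseudocount of 5 CPM that the 4-fold limit used. As a plain ratio, TFF3 was separated most widely, at 1174-fold in AD jejunum (953 to 1464) and 442-fold in AD colon (340 to 585).

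Free RNA was clear in NB abomasum. Its 321 PTPRC barcodes held TFF2 at 167 CPM in 57.6% of barcodes and TFF1 at 30.3 CPM in 16.8%, at a median of 4831 UMIs against 12394 in the EPCAM barcodes. TFF3 was at 8.74 CPM, GKN1 at 7.2, and GKN2 at 0.514 in the same barcodes. The ratio of EPCAM to PTPRC barcodes was 17.6 for TFF2, 18.1 for TFF1, 20.8 for TFF3, 13.6 for GKN2, and 8.06 for GKN1, and it was 14.3 for CYM, which encodes the milk-clotting protease chymosin, and 16.8 for PGA5, a pepsinogen. A share of barcodes with TFF2 or TFF1 in this library therefore includes UMIs at that background level. In NB colon, 15% of the 1523 PTPRC barcodes held TFF2, at 29 CPM.

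The EPCAM barcodes of NB abomasum were divided by markers that are not members. A barcode was taken as high in a marker group when the markers had at least 3 UMIs, at least 1000 CPM, and at least 5 times the level in PTPRC barcodes, a rule chosen after seeing the data. The groups were the chief markers (PGA5, CYM, and PGC, which encode digestive proteases), the parietal markers (ATP4A, ATP4B, and CBLIF, for acid and intrinsic factor), and CLCA1, a secreted protease of mucus. The marker SPINK4 was read together with CLCA1 but was at 0.729 CPM in this library. The usual markers of surface mucous and mucous neck cells, MUC5AC and MUC6, could not be read by symbol in the files, so no class was named for these cells. Because PTPRC barcodes held so much chief-marker RNA, the limit for chief markers was 92828 CPM. Such classes are ranges of a marker level, and 372 of the 3510 barcodes high in chief markers and 156 of the 1083 high in CLCA1 lay within 1.5 times the limit.

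TFF1, TFF2, and both gastrokines were at far lower levels in barcodes high in chief markers alone than in those high in CLCA1 alone. The 508 barcodes high in CLCA1 alone had TFF2 at 25367 CPM, TFF1 at 4638, TFF3 at 789, GKN1 at 360, and GKN2 at 58.4 CPM, and TFF2 was seen in 99.4% of them. The 2829 barcodes high in chief markers alone had TFF2 at 138 CPM and TFF1 at 29.6 CPM, which were not above the 167 and 30.3 CPM of the PTPRC barcodes. GKN1 was at 4.97 CPM and GKN2 at 0.489 CPM in them, beside 7.2 and 0.514 CPM in PTPRC barcodes. The 298 barcodes high in parietal markers alone had 136 CPM of TFF2 and 24 CPM of TFF1. In UMIs per barcode, however, TFF2 was at 2.3 in the deeper barcodes with chief markers alone, 1.26 in those with parietal markers alone, and 1.01 in PTPRC barcodes, and TFF1 was at 0.492, 0.221, and 0.184. Whether these 2 genes were above free RNA in the chief-marker barcodes thus depends on the scale.

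TFF3 differed from the other members in this respect. It was at 85.1 CPM (82.5 to 87.7) in the barcodes high in chief markers alone and at 8.74 CPM (5.09 to 14) in PTPRC barcodes, and these chief-marker barcodes held 34.1% of the TFF3 UMIs of the library against 3.44% of its TFF2 UMIs. The 558 barcodes high in both chief markers and CLCA1 had TFF3 at 695 CPM, close to the 789 CPM of those high in CLCA1 alone, although their TFF1 was at 779 CPM and their TFF2 at 8223 CPM. In the parietal-marker barcodes TFF3 was at 2.54 CPM (1.02 to 5.24). In barcodes high in chief markers alone, TFF3 was thus above its level in PTPRC barcodes on the CPM scale and TFF1 was not, while TFF1 was higher there in UMIs per barcode.

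GKN1 was divided between 2 classes. The 600 barcodes high in none of the 3 groups had 535 CPM of GKN1, above the 360 CPM of those high in CLCA1 alone, and held 47.4% of its UMIs against 40.2%. It was seen in 25.2% of the former and 40.9% of the latter, or in 16.3% and 16.4% after thinning. The same 600 barcodes had TFF1 at 2972 CPM and TFF2 at 8147 CPM, but TFF3 at only 95 CPM. They also had 1909 CPM of CHGA, an endocrine granule protein, which was seen in 9.83% of them, and a median of 4808 UMIs, so they were a mixed remainder. GKN2 was split between the barcodes high in CLCA1 alone (54.1% of its UMIs) and the remainder (26.2%).

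**Figure D2:**
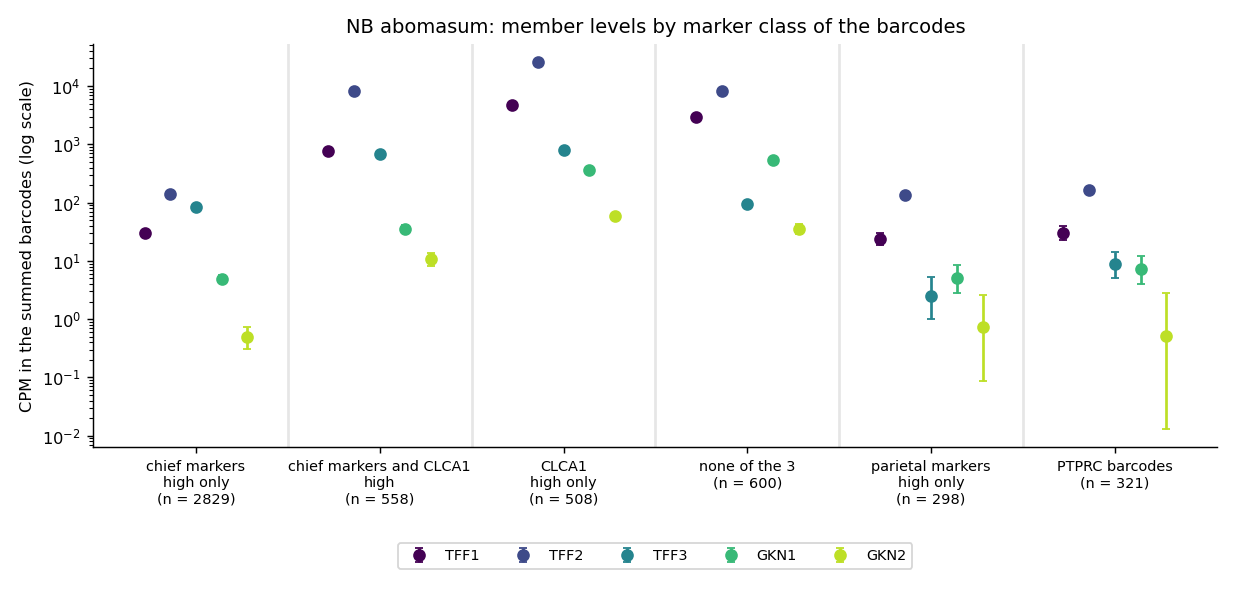
Level of the 5 members (CPM, log axis) in EPCAM barcodes of NB abomasum grouped by high levels of chief markers, CLCA1, or parietal markers, and in PTPRC barcodes, with exact Poisson 95% intervals. TFF2 is at 25367 CPM in barcodes high in CLCA1 alone and at 138 CPM in those high in chief markers alone, where TFF3 still has 85.1 CPM.

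The overlap of the members was also counted in barcodes high in a member itself, meaning at least 5 UMIs and at least 0.1% of the UMIs of the barcode. In NB abomasum there were 1109 TFF2-high, 771 TFF1-high, 264 TFF3-high, 111 GKN1-high, and 5 GKN2-high barcodes. Of the TFF1-high barcodes, 741 were also TFF2-high, which is 96.1% of the TFF1-high and 66.8% of the TFF2-high barcodes. Of the GKN1-high barcodes, 108 were also TFF1-high, or 97.3% of them and 14% of the TFF1-high ones. Of the TFF3-high barcodes, 242 (91.7%) were also TFF2-high and 165 (62.5%) TFF1-high. GKN1 and TFF3 met in 7 barcodes, 6.31% of the GKN1-high and 2.65% of the TFF3-high barcodes. Of all 4923 EPCAM barcodes, 22.5% were TFF2-high, 15.7% TFF1-high, 5.36% TFF3-high, and 2.25% GKN1-high. Over the 4923 barcodes the Pearson r of log-scaled counts was 0.851 for TFF1 and TFF2, 0.574 for TFF1 and GKN1, 0.480 for GKN1 and GKN2, 0.365 for TFF1 and TFF3, and 0.031 for GKN1 and TFF3. These barcodes share 1 library and its free RNA, so the r values are descriptions.

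In the intestine, TFF2 and TFF3 were concentrated in barcodes high in the summed UMIs of CLCA1 and SPINK4, a protease inhibitor of goblet cells. Only these 2 of the 5 goblet markers were listed by symbol, so the barcodes are named by the markers and not by a cell type. In all 15 pairs of member and intestinal library with at least 10 CPM and such barcodes, the level was highest in this class among the marker classes. Among all genes of at least 10 CPM, the share highest in this class was 5.18% in NB duodenum, 6.18% in NB jejunum, 4.43% in NB ileum, 15.4% in NB cecum, 12.1% in NB colon, 15.6% in NB rectum, 11.6% in AD jejunum, 7.63% in AD cecum, and 9.42% in AD colon. The count was 14 of 15 with a limit 3 times as high, 14 of 15 with scored doublets kept, and 12 of 13 with mitochondrial UMIs under 10%.

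For TFF3, the class had 13769 CPM in NB duodenum (165 barcodes), 5776 in NB jejunum (122), 3242 in NB ileum (120), 6531 in NB cecum (18), 1781 in NB colon (189), and 1388 in NB rectum (103). The other EPCAM barcodes of these libraries had 88.5, 8.34, 52.8, 38.4, 135, and 23.2 CPM. In NB jejunum 99.1% of the TFF3 UMIs were in the class, and in NB colon 78.2%. In each of the 3 tissues with such barcodes at both stages, the AD class was at a higher level of TFF3 than the NB class, with 48794 CPM in AD jejunum (9 barcodes), 25942 in AD cecum (47), and 11846 in AD colon (13). Within the NB tract the level of TFF3 in this class was therefore lower in colon and rectum than in duodenum.

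For TFF2 the class was lowest in jejunum and ileum and highest in colon within the NB tract. It had 184 CPM in NB duodenum, 5.42 in NB jejunum, 2.95 in NB ileum, 1794 in NB cecum, 21690 in NB colon, and 4084 in NB rectum. AD cecum had 3831 CPM and AD colon 6299 CPM, or 899 CPM without 1 barcode. The class held 98.5% of the TFF2 UMIs of NB colon, where 10 of its 189 barcodes lay within 1.5 times the limit. In NB cecum the class was at 235 CPM without the barcode highest in TFF2, so its level rested on 1 barcode.

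**Figure D3:**
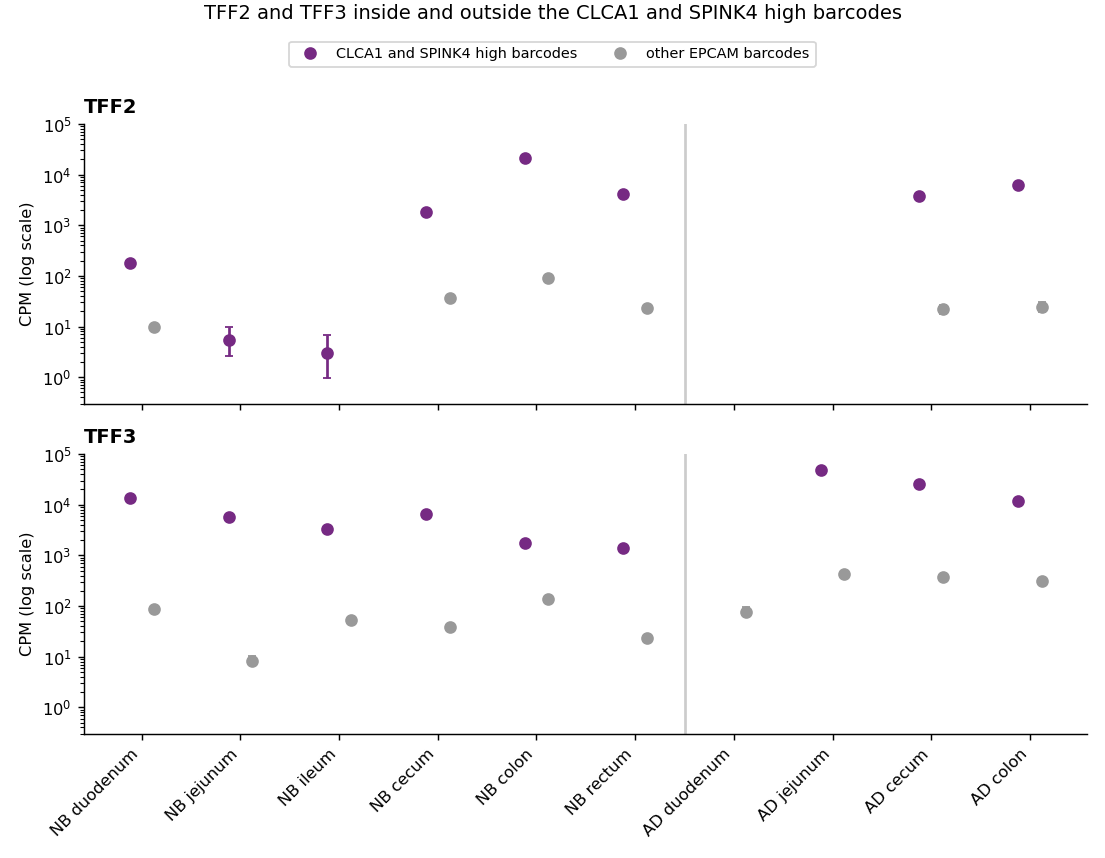
Levels of TFF2 and TFF3 (CPM, log axis) in barcodes high in the sum of CLCA1 and SPINK4 (purple) and in the other EPCAM barcodes (gray) of 10 intestinal libraries, with exact Poisson 95% intervals. Levels of 0 and classes under 5 barcodes are not drawn. TFF3 in the class is highest in NB duodenum among the NB libraries (13769 CPM), and TFF2 is highest in NB colon (21690 CPM).

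AD cecum and AD colon also had TFF3 outside this class, at 367 CPM in 638 barcodes and 305 CPM in 466 barcodes. The enterocyte and stem marker classes that follow may share barcodes with this class, and shared barcodes were not taken out. In AD cecum, barcodes high in enterocyte markers had 438 CPM of TFF3 in 76.2% of 143 barcodes, and barcodes high in stem markers had 552 CPM in 83.8% of 117. In AD colon, 110 barcodes high in enterocyte markers had 510 CPM of TFF3 in 73.6% of them and held 23.1% of the TFF3 UMIs. The same class had 10.1 CPM in NB cecum (78 barcodes) and 34.8 CPM in NB colon (94 barcodes), and PTPRC barcodes had 8.7 CPM in AD cecum and 1.82 CPM in AD colon. TFF3 was thus at a low level in most absorptive-marker barcodes of the AD large intestine, above the level of free RNA in the same libraries.

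Barcodes high in TFF2 and barcodes high in TFF3 overlapped in part in the NB large intestine. NB colon had 123 TFF2-high and 56 TFF3-high barcodes, with 23 in common, which is 18.7% of the former and 41.1% of the latter. NB rectum had 26 and 25, with 5 in common (19.2% and 20%), and NB cecum had 5 and 13, with 3 in common (60% and 23.1%). In AD cecum the pattern was nested, since 14 of the 16 TFF2-high barcodes (87.5%) were among the 77 TFF3-high ones (18.2% of these), and in AD colon 4 of 4 were among 23. Of all EPCAM barcodes, 12.3% were TFF2-high and 5.58% TFF3-high in NB colon, 2% and 1.92% in NB rectum, and 0.789% and 2.05% in NB cecum. The shares were 2.34% and 11.2% in AD cecum and 0.835% and 4.8% in AD colon. In each library the part of the TFF3-high barcodes that were TFF2-high was thus above the share of TFF2-high barcodes among all. The Pearson r of TFF2 and TFF3 over EPCAM barcodes was 0.309 in NB colon and 0.549 in AD cecum.

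**Figure D4:**
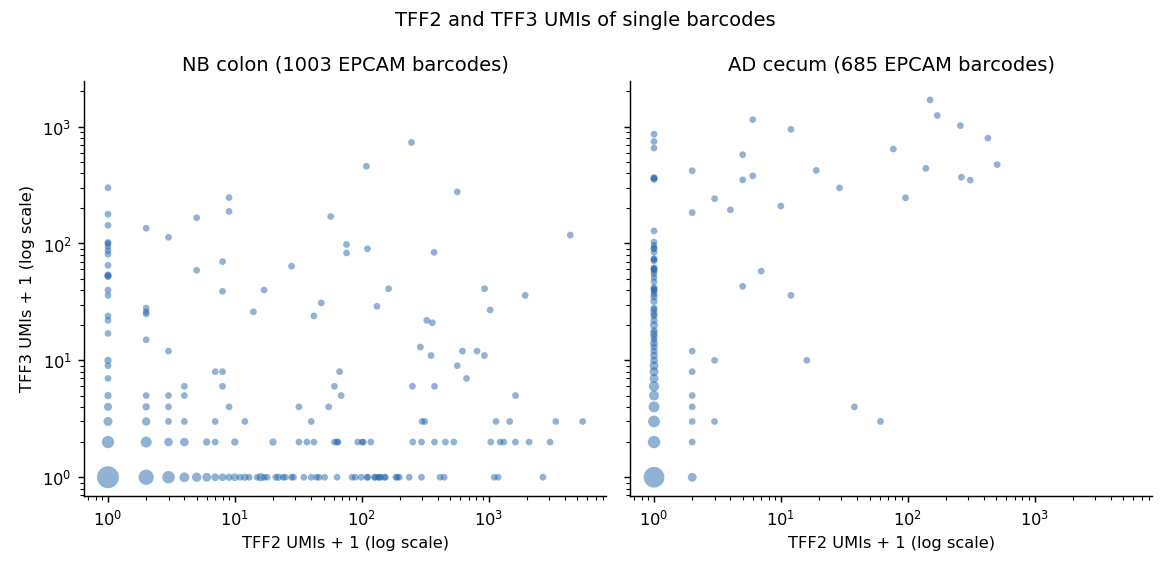
TFF2 and TFF3 UMIs plus 1 (log axes) of single EPCAM barcodes in NB colon (1003 barcodes) and AD cecum (685 barcodes), with larger points where more barcodes coincide. In NB colon many barcodes rich in TFF2 lie near the bottom, with few TFF3 UMIs, and in AD cecum 14 of the 16 TFF2-high barcodes are also TFF3-high.

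The barcodes high in only one of the 2 genes differed in other transcripts. In NB colon, the 100 barcodes high in TFF2 alone had SPINK4 at 52654 CPM, REG4, a secreted lectin, at 54998, and KLK1, tissue kallikrein, at 420 CPM. The 33 barcodes high in TFF3 alone had SPINK4 at 16483 CPM, REG4 at 9910, and KLK1 at 2 CPM. Guanylin (GUCA2A), chosen after its values were seen, went the other way, with 1984 CPM in the first and 11786 CPM in the second. The 23 barcodes high in both had GUCA2A at 7781 CPM and CLCA1 at 1267 CPM, against 5.2 CPM of CLCA1 in the barcodes high in TFF2 alone and 226 CPM in those high in TFF3 alone. SPINK4 and KLK1 were among the 5 genes with the highest Pearson r to TFF2 over these same 1003 EPCAM barcodes (0.779 and 0.682). Their higher level in the barcodes high in TFF2 alone is therefore not a separate result. REG4 was named through its r to TFF3 in AD cecum (0.852).

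The transcription factors of the secretory lineage did not separate them as widely. SPDEF was at 431 CPM with TFF2 alone and 196 CPM with TFF3 alone, and ATOH1 at 148 and 326 CPM, against 18 and 11.4 CPM in the 847 barcodes high in neither. AGR2, which folds mucins in the endoplasmic reticulum, was at 6079 and 5269 CPM. In NB rectum, GUCA2A was at 1800 CPM in 21 barcodes high in TFF2 alone and 11580 CPM in 20 high in TFF3 alone, and KLK1 at 315 and 47 CPM. CLCA1 was at 263 CPM in 52.4% of the former and at 676 CPM in 20% of the latter, so its share of barcodes there had the opposite order from NB colon (1% and 27.3%). In AD cecum, the 14 barcodes high in both had 348 CPM of GUCA2A and 9853 CPM of CLCA1, and the 63 high in TFF3 alone had 7591 and 2100 CPM. GUCA2A was not specific to TFF3 in AD cecum, since the 606 barcodes high in neither member had 10721 CPM of it, whereas the barcodes high in neither had 1450 CPM in NB colon and 1256 CPM in NB rectum.

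Between stages, the 5 members were compared in the 4 tissues with both stages, which gave 20 pairs of member and tissue, 7 of them, all of TFF2 or TFF3, with at least 10 CPM in either library. In duodenum, both TFF2 and TFF3 were 4-fold or more higher in NB, where 5.38% of all genes tested were higher in NB and 6.91% in AD. TFF2 passed the minimum level through NB alone, so it is not read against these shares. TFF3 was at 814 CPM in NB and 77.4 CPM in AD duodenum, a 10.5-fold difference (8.55 to 13.1), and TFF2 was at 19.1 CPM in NB and had no UMI in AD, at least a 7.31-fold difference. The TFF3 difference moved from 3.31 to 1.67 on the log2 scale when EPCAM barcodes needed 2 UMIs of EPCAM and to 1.73 without barcodes holding PTPRC or COL1A2, and so it no longer reached 4-fold. TFF2 in duodenum was at 1.96 without the barcode with the most UMIs.

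In jejunum neither gene passed 4-fold as reported, beside 2.72% of genes higher in NB and 3.12% in AD. TFF3 was at 770 CPM in NB and 2856 CPM in AD (log2 ratio −1.88), and TFF2 was at 0.717 CPM in NB and at 0 in AD. The TFF3 ratio passed 4-fold toward AD with 2 EPCAM UMIs required (−2.14) and without barcodes holding PTPRC or COL1A2 (−2.10), and it was −0.04 over all kept barcodes, of which EPCAM barcodes made up 10.7% in NB and 3.2% in AD. In cecum both genes were higher in AD, where 4.76% of genes were higher in NB and 1.91% in AD. TFF3 was at 197 CPM in NB and 3220 CPM in AD, a 16.3-fold difference (15.5 to 17.3). In NB cecum, 1 barcode held 661 of the 1389 TFF3 UMIs. TFF2 was at 80.2 CPM in NB and 447 CPM in AD, a 5.57-fold difference. The TFF2 ratio in cecum was −2.41 and moved to −1.79 without barcodes holding PTPRC or COL1A2.

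In colon the 2 genes differed. TFF2 was at 4709 CPM in NB and 296 CPM in AD, a 15.9-fold difference (15 to 16.9), beside 1.12% of genes higher in NB and 3.93% in AD. TFF3 was at 487 CPM in NB and 803 CPM in AD, which was 1.65-fold and under the limit. The TFF2 ratio in colon was 3.97, and 6.06 without the barcode with the most UMIs in each library. With no upper limits and scored doublets kept it was 1.77, and 1 AD colon barcode with more than 50000 UMIs then held 2626 TFF2 UMIs, more than the 1056 of all kept EPCAM barcodes. TFF3 in colon was −0.72, and it was 1.22 over all kept barcodes. TFF1, GKN1, and GKN2 had no UMI in the retained EPCAM barcodes of these 8 libraries apart from the 18 TFF1 UMIs in NB duodenum. In total, 3 of the 20 pairs were 4-fold higher in NB and 2 in AD, and pairs under 10 CPM in both libraries could not be counted.

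**Figure D5:**
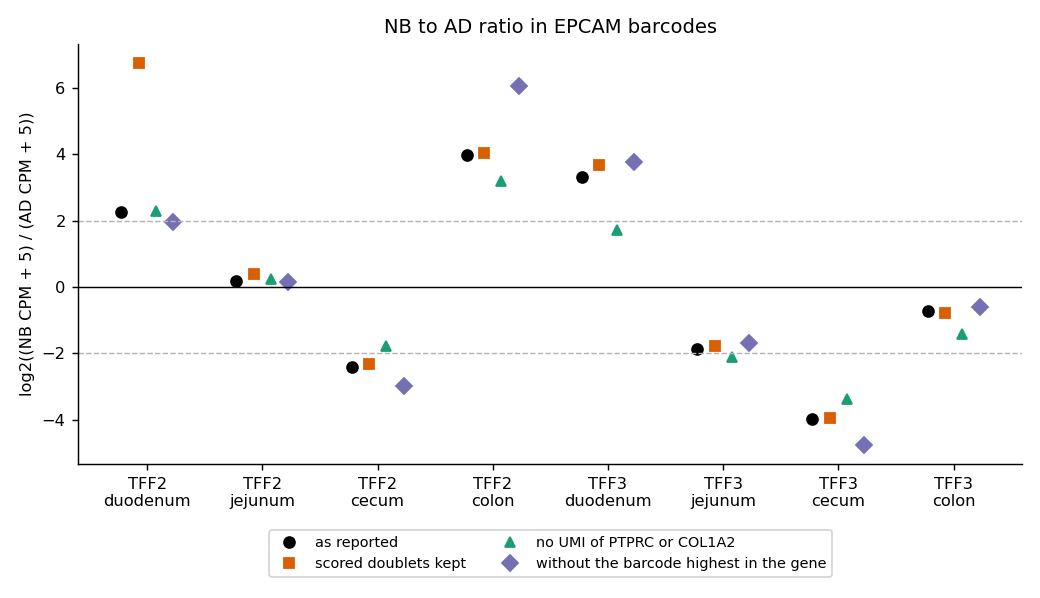
Log2 ratio of NB to AD levels of TFF2 and TFF3 in EPCAM barcodes of 4 tissues, as reported (black), with scored doublets kept (orange), without barcodes holding PTPRC or COL1A2 (green), and without the barcode highest in the gene (purple), the last chosen after seeing the data. Dashed lines mark 4-fold. TFF2 in colon lies above the upper line (3.97) and both genes in cecum below the lower one (−2.41 and −4.00) as reported, and TFF2 in duodenum moves to 6.75 when scored doublets are kept.

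Inside the barcodes high in the sum of CLCA1 and SPINK4, the stages could be set side by side in 3 tissues. TFF3 was higher in AD in each, namely 8.45-fold for jejunum (8.19 to 8.71, 9 AD barcodes), 3.97-fold for cecum (3.74 to 4.22), and 6.65-fold for colon (6.29 to 7.03). TFF2 was 3.44-fold higher in NB colon (3.23 to 3.67) and 2.14-fold higher in AD cecum (1.9 to 2.41). Single barcodes made both folds smaller. Without the barcode highest in TFF2 in each class, TFF2 was at 19577 CPM in NB and 899 CPM in AD colon, and at 235 CPM in NB and 3135 CPM in AD cecum. Without the barcode highest in TFF3, the cecum classes had 3115 CPM of TFF3 in NB and 24054 CPM in AD. With scored doublets kept, the AD jejunum class had 27 barcodes and the TFF3 ratio was 4.53. PTPRC was seen in 11.1%, 19.1%, and 15.4% of these AD barcodes and in 0% to 2.12% of the NB ones. The markers that define the class also differed by stage. SPINK4 was higher in AD for jejunum (51884.5 against 16704 CPM) and cecum (64985 against 16765 CPM). It was higher in NB for colon (44448 against 22422 CPM). CLCA1 was higher in AD throughout: jejunum 19510 against 37.4 CPM, cecum 5874 against 528 CPM, colon 2015 against 214 CPM. The part of these marker differences in the TFF2 and TFF3 folds was not tested. The share of EPCAM barcodes in the class was 9.83% in NB and 2.81% in AD jejunum, 2.84% in NB and 6.86% in AD cecum, and 18.8% in NB and 2.71% in AD colon.

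Most TFF2 of NB duodenum lay in barcodes that the filters took out. The library held 28363 TFF2 UMIs, and 23502 of them (82.9%) were in barcodes removed as scored doublets. Among EPCAM barcodes, 18 were TFF2-high, and 12 of these (66.7%) were removed, against 7.42% of all EPCAM barcodes. The 12 removed barcodes had 333 to 6104 TFF2 UMIs each, with a median of 1415, so that TFF2 made up 13.2% of their UMIs. With them, TFF2 in NB duodenum was at 533 CPM and at least 245-fold higher than in AD duodenum.

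The 12 removed and the 6 retained TFF2-high barcodes differed in other transcripts. LYZ2, a lysozyme, was at 95863 CPM in all 12, PGA5 at 2754 CPM in 10, ANXA10, an annexin of gastric epithelium, at 383 CPM in all 12, GCNT3, which branches mucin sugars, at 535 CPM in 11, and GKN3P, a gastrokine relative, at 591 CPM in 6. SPINK4 was seen in 1 of the 12, at 16.9 CPM, and in 5 of the 6 retained ones, at 26999 CPM. GCNT3 was seen in 3 of the 6 retained ones, at 109 CPM, LYZ2 in 1 of them, and PGA5, ANXA10, and GKN3P in none. PTPRC, COL1A2 of fibroblasts, and PECAM1 of endothelium were seen in 0 of the 12, which allows up to 25% of barcodes with a UMI of each and sets no limit on cells that express them. FABP2, an enterocyte marker, was seen in 7 of the 12, at 90.1 CPM, and in 3 of the 6 retained ones, at 6182 CPM. In the other retained EPCAM barcodes of the library it was seen in 88.5%, at 6234 CPM. MKI67, of dividing cells, was seen in 5 of the 12, at 90.1 CPM. TFF1 had 15 UMIs in 5 of the 12 barcodes and GKN2 had 8 UMIs in 2. The lysozyme and the comparison of removed with retained barcodes were chosen after seeing the values, and whether the 12 are doublets was not tested.

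Removal as scored doublets also took a larger part of the TFF3-high barcodes than of all EPCAM barcodes in some libraries. It took 39.3% of 191 in NB jejunum against 21% of EPCAM barcodes, 44.2% of 77 in AD jejunum against 30%, 20.6% of 272 in NB duodenum against 7.42%, and 21.9% of 32 in NB rectum against 7.26%. It took a smaller part of them in NB abomasum (5.04% against 8.71%), NB ileum (3.8% against 9.84%), NB colon (3.45% against 4.75%), AD cecum (6.1% against 10.8%), and AD colon (4.17% against 7.71%). The levels of TFF3 with these barcodes kept were 876 CPM in NB jejunum, 3034 CPM in AD jejunum, and 891 CPM in NB duodenum.

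The genes of the pathway were read from lists of partners, mucus secretory genes, gastric surface genes, and regulators. Of the 10 partners, 5 were listed by symbol. CXCR4, a receptor proposed for TFF2, was the only one above 10 CPM in the tissues with both stages. It was 4-fold or more higher in AD duodenum (164 against 13.6 CPM), which also had the most PTPRC, beside 6.91% of all genes tested. In cecum (131 against 30.3 CPM), colon (117 against 26 CPM), and jejunum (33.7 against 22.6 CPM) CXCR4 was higher in NB. The log2 ratios there, 1.94, 1.97, and 0.49, were under the 4-fold limit. EGFR was at 10.9 and 12.6 CPM in NB reticulum and omasum, where no member had a UMI, and at 0.837 CPM in NB abomasum. LINGO2, a reported receptor of TFF3, and LINGO3 had no UMI in any EPCAM barcode.

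Of the 16 mucus secretory genes listed by symbol, 5 of 9 tested were 4-fold higher in NB duodenum and 0 in AD duodenum. The 5 were MUC13, AGR2, AGR3, SPINK4, and SPDEF. The median log2 ratio was 2.15 beside −0.33 for all genes tested, of which 5.38% were higher in NB and 6.91% in AD. Only AGR2 of the 5 also had 10 CPM or more in AD duodenum (63.5 CPM), so the count is a description. In AD duodenum PTPRC was in 73.3% and KRT8 in 14.9% of the EPCAM barcodes, and the part of this in the result was not tested. In jejunum, 1 of 10, CLCA1, was higher in AD (977 against 5.73 CPM), beside 3.12% of all genes. It passed the minimum level through AD alone. In cecum, MUC1 was higher in NB, and CLCA1, SPINK4, and BCAS1 were higher in AD, among 12 tested, beside 4.76% and 1.91% of all genes. BCAS1 passed the minimum level through AD alone (6.25 CPM in NB). In colon, 5 of 13 were higher in NB, namely MUC1, AGR2, SPINK4, SPDEF, and KLK1, and 0 in AD. The median was 0.95 beside −0.37 for all genes, of which 1.12% were higher in NB and 3.93% in AD. MUC1 passed the minimum level through NB alone (4.2 CPM in AD). SPINK4, at 9569 CPM in NB and 986 CPM in AD colon and at 420 CPM in NB and 7273 CPM in AD cecum, was higher in the same stage as TFF2 in both tissues.

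Of the 9 gastric surface genes listed by symbol, ANXA10 (603 CPM), CLDN18, a tight junction protein (227 CPM), and VSIG1, a gastric adhesion protein (107 CPM), were high in NB abomasum and under 1 CPM in all other libraries. TMEM92 was at 17.6 CPM in NB abomasum but higher in NB cecum (25.6), AD cecum (60.2), and AD colon (24.9), AQP5 was highest in NB salivary gland (35.2 CPM), CAPN8 reached 7.85 CPM in NB abomasum, and PSCA, SULT1C2, and GAST were under 1 CPM everywhere. At most 1 of the 9 was tested in any tissue with both stages, and none passed 4-fold. Of the 21 regulators, 1 of 11 tested, SPDEF, was higher in NB duodenum (17.3 CPM against 0), beside 5.38% of all genes. SPDEF passed the minimum level there through NB alone. In colon, 2 of 13 tested, SPDEF and ATOH1, were higher in NB (90.9 and 48.1 against 12.9 and 8.12 CPM), beside 1.12% of all genes. ATOH1 passed the minimum level there through NB alone, and none of 13 tested passed 4-fold in jejunum or cecum. CDX1 and CDX2, factors of intestinal identity, were at 0.0155 and 0 CPM in NB abomasum and at 61.5 and 68 CPM in NB duodenum. GATA5 was at 67.3 CPM in NB abomasum and 52.7 CPM in NB duodenum, but at 3.22 CPM in NB colon.

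Genes with the most similar pattern were named by the highest Pearson r, as a description. Over the 15 libraries, TFF1, GKN1, and GKN2 shared VSIG1, KCNE2, ANXA10, ATP4A, and the unnamed ENSBTAG00000011402, with r of 0.998 for TFF1 and 0.999 or more for GKN1 and GKN2 after rounding, which rests on NB abomasum alone. TFF2 was most like ERN2, a stress sensor of mucous cells (0.914), SLC35A1, a sialic acid transporter (0.912), GCNT3 (0.890), the gene CPM for carboxypeptidase M (0.869), and FUT6, a fucosyltransferase (0.851). TFF3 was most like ENSBTAG00000005261 (0.952), TSPAN13 (0.867), C7H5orf30 (0.852), TRIM36 (0.850), and ELF3, an epithelial transcription factor (0.841).

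Over single EPCAM barcodes of the library where each member was highest, the genes most like TFF1 included SPINK1 (0.869), S100A2 (0.863), TFF2 (0.851), and GCNT3 (0.817) in NB abomasum. TFF2 in NB colon was most like ENSBTAG00000050212 (0.792), SPINK4 (0.779), MPTX (0.687), KLK1 (0.682), and ENSBTAG00000011941 (0.677). TFF3 in AD cecum was most like ENSBTAG00000005261 (0.862), REG4 (0.852), AGR2 (0.810), SPINK4 (0.764), and WFDC2 (0.759), and ENSBTAG00000005261 was thus its nearest gene both over libraries and over barcodes. Those most like GKN1 included ENSBTAG00000050611 (0.612), ISG12(B) (0.605), C18H19orf33 (0.588), and TFF1 (0.574), and those most like GKN2 included GKN1 (0.480), PGC (0.380), TFF1 (0.339), and SPINK1 (0.324).

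The genes lie in 2 clusters. In the order of a RefSeq gene table of a later cattle assembly, TFF3, TFF2, and TFF1 are adjacent, and GKN2 and GKN1 are adjacent. The 3 genes on either side of each cluster were ABCG1, UMODL1, ZBTB21, TMPRSS3, UBASH3A, and RSPH1 for the trefoil factors, and BMP10, ARHGAP25, PROKR1, ANTXR1, GFPT1, and NFU1 for the gastrokines. Only TMPRSS3, at 0.186 CPM, was highest in NB abomasum, and BMP10 had no UMI. In NB abomasum these 12 genes were at 0 to 47.2 CPM. GFPT1, which makes amino sugars and lies beside the gastrokines, was highest in AD cecum at 38.7 CPM, where GKN1 and GKN2 had no UMI.

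TFF3 of NB salivary gland came from few barcodes. Of the 73 EPCAM barcodes, 18 held TFF3, and 15 of these were TFF3-high, with 10553 CPM over the 18. AQP5, the water channel of salivary secretory cells, was seen in 7 of the 18 and in 0 of the 55 others, which allows up to 5.45% of barcodes with an AQP5 UMI and sets no limit on cells that express it. Of the other salivary markers, LPO was seen in 3 of the 18 and 1 of the 55, PRLR in 3 and 6, and BHLHA15 in 1 and 0. KRT8 was seen in 11 of the 18 and 9 of the 55, and PTPRC in 3 of the 18 and 35 of the 55. CD3E, a T cell gene, was seen in 6 of the 18 and 32 of the 55. The 2089 PTPRC barcodes of the library had TFF3 at 6.26 CPM. The level of 2725 CPM over all 73 barcodes is therefore an average over a part with TFF3 and epithelial keratin and a larger part with leukocyte transcripts. GKN3P, a gastrokine relative that is no member, was at 3.57 CPM in NB abomasum, below GKN2.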

How the data were processed

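The 15 libraries held raw UMI counts per gene and barcode, which the authors deposited as unnormalized matrices made with Cell Ranger 3.1.0 on the cattle assembly ARS-UCD1.2 (27270 genes). A barcode was retained if it had 500 to 4000 genes, fewer than 50000 UMIs, and less than 40% of UMIs from the 13 mitochondrial genes. Doublets were scored per library with the Scrublet method in scanpy 1.11.5 (2 simulated doublets per barcode, 30 principal components). Top-scoring barcodes were taken out at a rate of 0.8% for every 1000 barcodes. The study used DoubletFinder, which was not run here. Counts were summed over EPCAM barcodes and scaled to CPM. Ratios used log2(CPM + 5). Genes with at least 10 CPM in either library were compared, and 4-fold was the limit. Exact Poisson intervals were used for levels and their ratios, and Clopper-Pearson intervals for shares, at 95%. A count of 0 was bounded at 3 UMIs. Shares were also given after thinning to 1000 UMIs, leaving out shallower barcodes. Library totals ran from 17707625 to 129458578 UMIs, and a median of 3553 to 8982 UMIs per retained barcode. Groups were tissue and stage as labelled, with 1 library each, so no p-value is given.

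The genes named were the members, lists of partners, mucus secretory genes, gastric surface genes, and regulators, 3 neighbours on each side, and the 5 genes with the highest Pearson r to each member, of which 1 gene is not reported here. Others are markers or are said to be chosen after their values were seen. The members and lists were chosen with earlier results of these data known. The rules for marker classes and for barcodes high in a member were chosen after seeing the data. Symbols of the lists that could not be matched were not analysed here. Gene order came from a RefSeq table of another assembly, so no coordinates or sequences are given. Alternatives concerned the filters, doublets, the EPCAM rule, the pseudocount, the scaling, and single barcodes. The computation was tested on simulated data. Python 3.11.15, NumPy 2.4.6, SciPy 1.17.1, pandas 2.3.3, anndata 0.12.19, and matplotlib 3.10.9 were used.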

Additional observations from a re-analysis of the deposited data

Results flagged for a closer look

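The NB to AD log2 ratios of 1 gene pointed in opposite directions in different tissues. TFF2 was at 2.27 in duodenum and 3.97 in colon but at −2.41 in cecum, and TFF3 was at 3.31 in duodenum but at −4.00 in cecum. With 1 library per tissue and stage, the differences between tissues were not tested.

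Some TFF2 lay in barcodes outside the comparisons. In NB duodenum, 23502 TFF2 UMIs were in barcodes removed as scored doublets, 1380 in barcodes with more than 4000 genes, and 2234 in barcodes with 50000 UMIs or more, beside 807 in the retained EPCAM barcodes. In AD colon, 2626 TFF2 UMIs were in 1 barcode with 50000 UMIs or more, beside 1056 in the retained EPCAM barcodes. The retained EPCAM barcodes of NB rectum held 36.1% of the 11544 TFF2 UMIs and 34.8% of the TFF3 UMIs of that library. Barcodes with more than 4000 genes held 2782 of these TFF2 UMIs, and those with 50000 UMIs or more held 2536.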

How the results depend on the processing

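No paired analysis was possible because each tissue and stage had 1 library, and for the same reason no library could be left out of a group. Across the alternatives, the number of members highest in NB abomasum was 3 to 4, the number of pairs at 10 CPM or more 20 to 22 of 75, the stage pairs 4-fold higher 2 to 3 in NB and 2 to 3 in AD, the pairs higher in EPCAM than in PTPRC barcodes 19 to 21, and the pairs highest in the CLCA1 and SPINK4 class 12 to 15. None of these counts moved by more than 1.5 times, but the pairs behind a count could differ. With 2 EPCAM UMIs required, TFF3 fell under 4-fold in duodenum (1.67) and passed it toward AD in jejunum (−2.14). Single log2 ratios were less stable, with 148 scored as moved from the reported value and 74 as the same. TFF2 changed its order between NB colon and NB abomasum under 5 of the alternatives, from a log2 ratio of 0.68 to −0.38 without the upper limit on genes, −0.18 with the mean over barcodes, −0.28 without mitochondrial genes and genes above 1%, −0.46 over all kept barcodes, and −0.32 with no upper limits and scored doublets kept. The last setting and the removal of the barcode with the most UMIs of a member were chosen after seeing the data. The cause was not tested. The TFF2 log2 ratio of NB abomasum to NB duodenum was 6.93 as reported and 2.44 with scored doublets kept. Depth limited NB salivary gland most, where a count of 0 allows 5.56 CPM, followed by AD duodenum at 2.61 CPM.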
